A study of Mus musculus with 69 samples.

Results

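The 38 ribosome biogenesis and nucleolar genes described here were chosen by name, from what their proteins are known to do in making ribosomes. All 38 were found once in each of the 4 deposited tables, among 52404 genes that the tables share. They cover RNA polymerase I transcription (4 genes), abundant nucleolar proteins (5), the box C/D small nucleolar ribonucleoprotein (3), the box H/ACA small nucleolar ribonucleoprotein and its chaperone (4), the small-subunit processome (9), later maturation of the small subunit (5) and assembly of the large subunit (8).

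RNA-seq had been done on tubules microdissected from the kidneys of wild-type male C57BL/6 mice, 7 weeks old and weighing 20 to 30 g, which were sham operated or had a kidney removed by surgical excision (unilateral nephrectomy, UNx). Each library held tubules of 1 of 2 kinds: PT-S1, the S1 part of the proximal tubule, where most filtered solutes are reabsorbed, or CCD, the cortical collecting duct, which adjusts salt and water excretion. For PT-S1 there were 3 sham animals (8 libraries) and 4 UNx animals (9 libraries) at 24 h after surgery, and 5 animals with 12 libraries for sham and as many for UNx at 72 h. For CCD there were 4 sham animals (8 libraries) and 3 UNx animals (7 libraries) at 24 h, and 4 sham animals (7 libraries) and 4 UNx animals (6 libraries) at 72 h. The animal was the replicate. Whether both segments came from the same mice is not given in the labels.

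Ribosomes are built in the nucleolus. RNA polymerase I transcribes the precursor of the ribosomal RNA, small nucleolar ribonucleoproteins guide its methylation and pseudouridylation, the processome folds and cleaves it around the future small subunit, and further factors assemble the large subunit. Growth signals such as mTORC1 and MYC are known to drive this pathway, and the kidney that remains after a nephrectomy is known to grow, much of it by enlargement of tubule cells. The question for these genes is therefore whether a larger share of the mRNA in tubules of the remaining kidney codes for the machinery that makes ribosomes. Every library is scaled to the same total, so a rise of all mRNA in a cell could not be seen.

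None of the 38 genes passed the test in either segment at either time. The test was limma on log2(TPM + 1), where TPM is the usual length-corrected share of a library's transcripts, with Benjamini-Hochberg adjustment over all genes tested and a threshold of 0.05. Few genes of any kind passed it: 0% of all genes tested in PT-S1 at 24 h and at 72 h, 0.987% in CCD at 24 h and 0.595% in CCD at 72 h, so a count of 0 members is near the background. Each change below is UNx minus sham on that log2 scale, where folds of low genes come out too small. Fold limits set on confidence intervals below are on that scale too, as folds of TPM + 1. At an unadjusted p under 0.05, without the adjustment, limma gave 4 of the 38 in PT-S1 at 24 h, 14 in PT-S1 at 72 h, 1 in CCD at 24 h and 0 in CCD at 72 h. The same limit held 17.8% of all genes tested in PT-S1 at 24 h, 20.5% in PT-S1 at 72 h, 15.5% in CCD at 24 h and 7.49% in CCD at 72 h. All 14 in PT-S1 at 72 h had lower values in UNx, as had 19.1% of all genes at that limit, while 0 members and 1.33% of all genes had higher ones. Of the 4 in PT-S1 at 24 h, 3 were lower (15.2% of all genes) and 1 higher (2.59%). The 1 in CCD at 24 h was higher (5.55% of all genes), and 0 were lower (9.97%). In CCD at 72 h, 4.66% of all genes were higher and 2.82% lower at that limit.

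The depth of the libraries is unknown, because TPM keeps no depth, and no value below carries a counting error. Libraries had 9247 to 14875 genes with at least 1 TPM. The defining transporters of PT-S1 (6 genes, among them Slc5a2 and Slc34a1) summed to between 5312 and 15262 TPM per animal in the PT-S1 tables and to between 9.98 and 56.4 TPM in the CCD tables. The 6 principal cell markers, among them Aqp2, summed to between 15874 and 54754 TPM in the CCD tables and to at most 5.64 TPM in the PT-S1 tables. The 5 intercalated cell markers summed to between 1905 and 3429 TPM in the CCD tables and to at most 12.7 TPM in the PT-S1 tables. Of other cell types, the 7 macrophage and leukocyte markers summed to between 6.25 and 88.4 TPM per animal over the 4 tables. The 6 markers of fibroblasts and mural cells reached at most 110 TPM and the 4 of erythrocytes at most 127 TPM. The part of these cells in the members' values was not tested. Of the 69 libraries, 5 stood apart, with a median correlation under 0.92 with the rest of their table. They came from sham animals 1 and 3 of PT-S1 at 24 h, UNx animals 1 and 2 of PT-S1 at 72 h and sham animal 1 of CCD at 72 h. In the pair of UNx libraries of PT-S1 at 72 h, the members lay a median of -1.48 and -1.23 from their table's median on the log2 scale, and all genes lay -1.37 and -1.23 from it. The value of an animal below is the mean of log2(TPM + 1) over its libraries, turned back into TPM.

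Many promoters of ribosome biogenesis genes are known to carry the E-box CACGTG, the site that MYC binds with its partner MAX. RefSeq promoter windows (mouse build GRCm38.p6, 300 bases, from 250 before the start of transcription to 50 after) matched 32 of the 38 genes with 39 windows. CACGTG, which reads the same on both strands, was in 8 of these 39 windows (20.5%) and in 7.15% of all 32851 windows of that length. The match describes the letters only, and binding was not measured. The 8 genes were Nop2, Utp4, Ltv1, Utp20, Pes1, Mybbp1a, Tsr1 and Wdr43. Not all are shown, and Utp20, whose values are also given below, is among those left out. The stretches of Nop2, which holds the only match before the start of transcription, and of Mybbp1a, Tsr1 and Pes1, whose values are given below, are shown 5′ to 3′ with the E-box in capitals.
Nop2, chr6:125131811-125131840, plus strand: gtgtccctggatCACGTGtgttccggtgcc
Mybbp1a, chr11:72441355-72441376, plus strand: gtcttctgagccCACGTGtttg
Tsr1, chr11:74898092-74898121, plus strand: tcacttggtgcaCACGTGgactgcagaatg
Pes1, chr11:3963965-3963994, plus strand: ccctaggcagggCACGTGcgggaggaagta

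**Figure D1:**
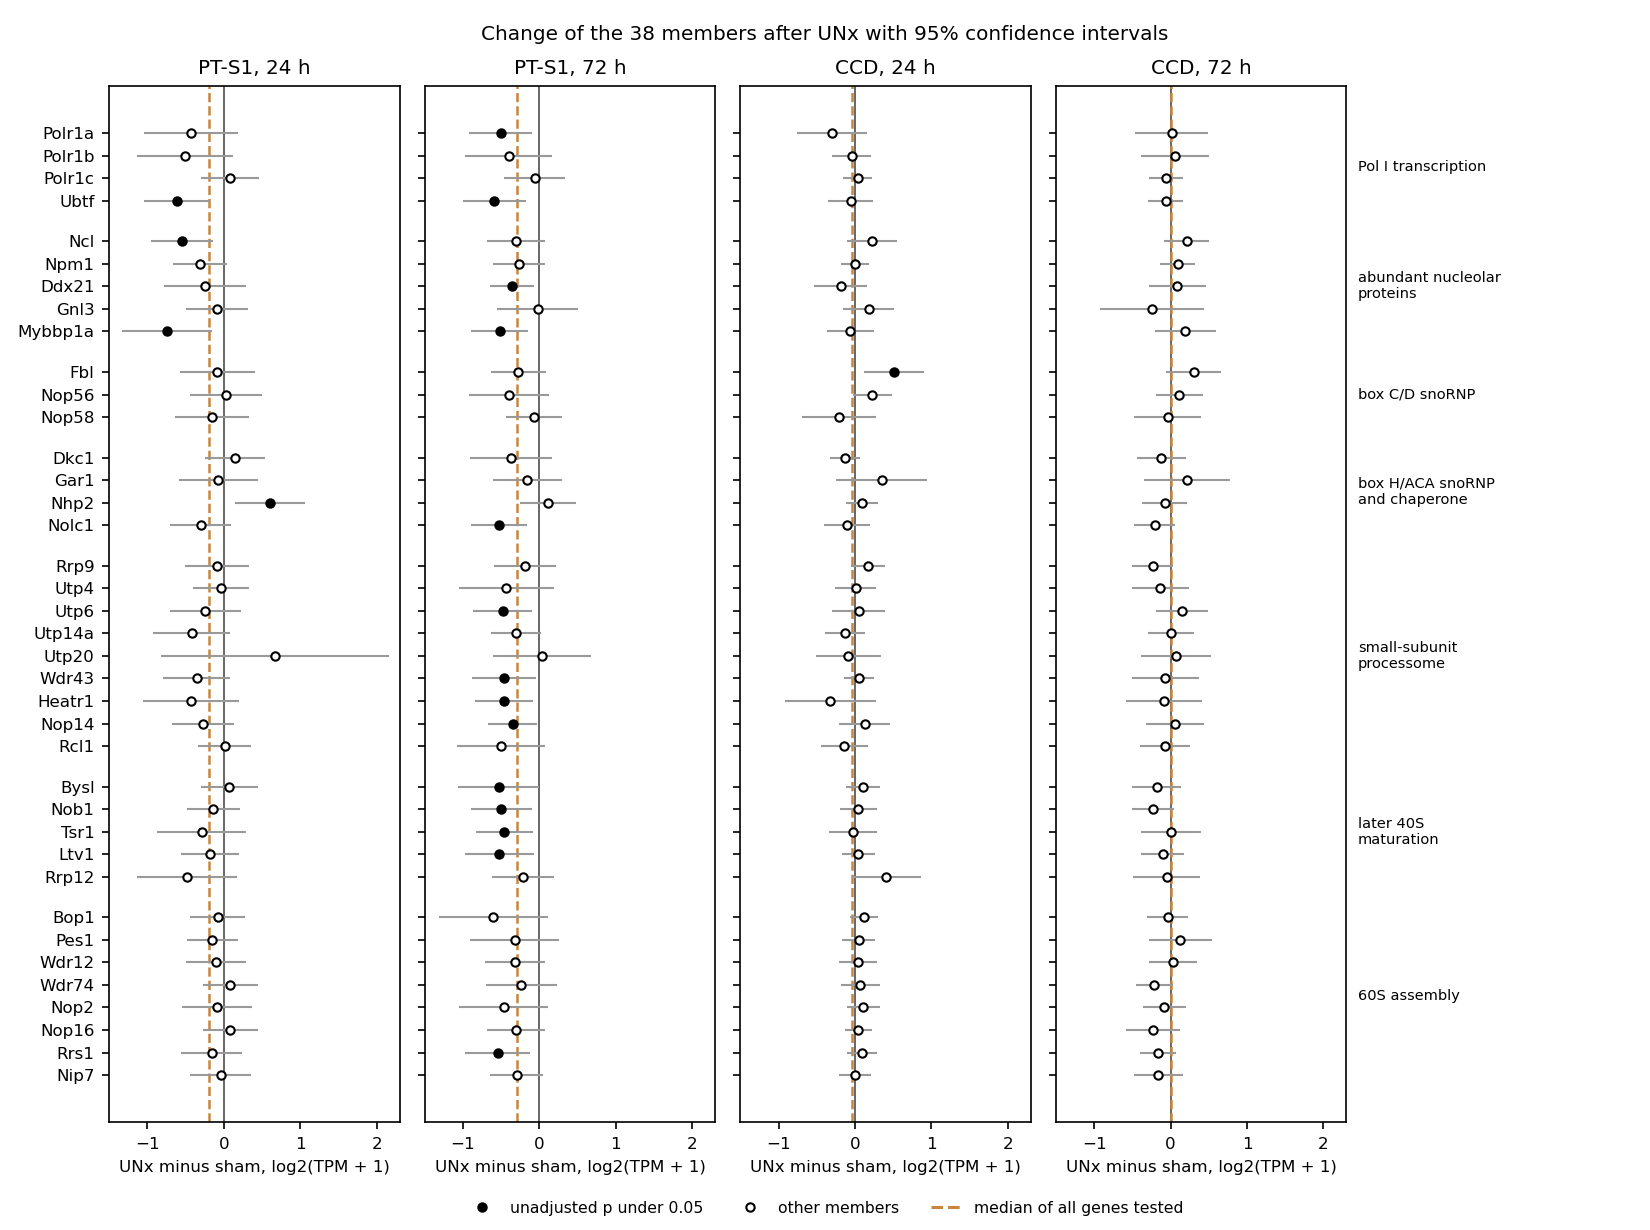
Change of each of the 38 genes (UNx minus sham, log2(TPM + 1), horizontal axis) with its 95% confidence interval in the 4 tables, grouped by role. Filled points have an unadjusted p under 0.05 (4, 14, 1 and 0 genes from left to right), none passed after adjustment, and the dashed line is the median of all genes tested, which lies below 0 in both PT-S1 tables.

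In PT-S1 at 24 h, the members' changes had a median of -0.14, beside -0.19 over all 11874 genes tested. It was -0.07 without sham animal 1, beside -0.12 over all genes, and -0.07 without UNx animal 1, beside -0.17. Of the 38 genes, 9 had values above 0 and 29 below. This split turned under other scalings of the libraries: 23 lay above 0 with median-ratio scaling and 24 with quantile normalization, where the median of all genes was 0.01 and 0.00. Relative to the median of all genes, 23 of the 38 lay above it. Here 30 of the 38 confidence intervals (95%) lay within a 2-fold difference in both directions.

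Ubtf, the factor that opens ribosomal DNA for RNA polymerase I, had the smallest p in PT-S1 at 24 h. Its sham animals were at 32.9, 22.8 and 27.0 TPM and its UNx animals at 14.9, 15.7, 18.1 and 21.5 TPM. Every UNx animal was below every sham animal, as was so for 12.1% of all genes tested and for 4 of the 38 members (Ubtf, Ncl, Npm1 and Nolc1). The means were 27.5 ± 5.10 TPM (SD, n = 3) and 17.6 ± 2.94 TPM (SD, n = 4), and the change was -0.62 (SE 0.19, limma adjusted p = 0.254), or -0.43 relative to all genes. Sham animals 1 and 3 each hold a library that stood apart, and the change was -0.49 without those libraries. The catalytic subunit Polr1a and its partner Polr1b had changes of -0.43 and -0.51, with overlapping groups, and Polr1c, which RNA polymerases I and III share, had 0.08.

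Ncl encodes nucleolin, an abundant RNA-binding protein of the nucleolus. In PT-S1 at 24 h its sham animals were at 78.9, 57.0 and 75.3 TPM and its UNx animals at 37.8, 49.0, 54.7 and 49.8 TPM, again without overlap. The change was -0.55 (SE 0.18, limma adjusted p = 0.254), and -0.35 without the libraries that stood apart. Npm1 (nucleophosmin, a histone and ribosome chaperone) was at 70.3, 75.5 and 79.2 TPM in sham and at 50.3, 58.4, 63.2 and 69.8 TPM in UNx. Its groups did not overlap either, although the gap between them was under 1 TPM, and the change was -0.31 (SE 0.16). Processed copies of Npm1 could share its reads, so its level is uncertain.

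Mybbp1a, a nucleolar protein that restrains RNA polymerase I, was at 32.9, 17.0 and 20.9 TPM in sham and at 10.04, 13.9, 19.0 and 11.3 TPM in UNx at 24 h in PT-S1. UNx animal 3 was above sham animal 2, so the groups overlapped, and the change was -0.74 (SE 0.26, limma adjusted p = 0.254). It was -0.55 without the libraries that stood apart and -0.48 without sham animal 1, the highest. Utp14a, a processome subunit, was at 4.18, 2.25 and 3.45 TPM in sham and at 1.68, 1.95, 2.76 and 2.29 TPM in UNx, with overlap and a change of -0.42 (SE 0.23), or -0.27 without the libraries that stood apart. Reads of its retrocopy Utp14b may be split with it.

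Nhp2, a core protein of the box H/ACA particles, was the only member above sham in every UNx animal of PT-S1 at 24 h, as were 2.79% of all genes tested. Its sham animals were at 69.0, 69.3 and 89.8 TPM and its UNx animals at 98.9, 118, 159.6 and 94.3 TPM. Its single libraries overlapped, from 28.9 to 132 TPM in sham and from 67.2 to 205 TPM in UNx. The means were 76.0 ± 11.9 TPM (SD, n = 3) and 118 ± 29.7 TPM (SD, n = 4), and the change was 0.60 (SE 0.21, limma adjusted p = 0.254). With sham animal 1 or sham animal 2 left out alone, Nhp2 did not have an unadjusted p under 0.05 by limma. Its partners in the particle had values nearer 0: Dkc1, the pseudouridine synthase, had a change of 0.15 and Gar1 had -0.07, each with overlapping groups. Nolc1, a chaperone of these particles, had -0.30 (SE 0.18), with every UNx animal below sham.

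In the other role groups of PT-S1 at 24 h, no member had an unadjusted p under 0.05. The smallest p of the box C/D proteins, which methylate ribosomal RNA, was that of Nop58 (-0.15, SE 0.22), and that of the large-subunit group was that of Pes1 (-0.15, SE 0.15). Both were at 0.04 relative to all genes, and both had values above 0 with median-ratio scaling and quantile normalization. Rrp12, needed for export and maturation of pre-ribosomes, had -0.48 (SE 0.29). Utp20, a large scaffold of the processome, had the widest spread of the members. Its sham animals were at 5.48, 3.10 and 6.76 TPM and its UNx animals at 6.47, 8.41, 37.4 and 1.88 TPM, so UNx held both the lowest and the highest animal (change 0.67, SE 0.67).

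In PT-S1 at 72 h, 36 of the 38 members had values below 0, with a median of -0.37, beside a median of -0.29 over all 11886 genes tested, of which 17.0% were above 0. The members' median thus lay -0.08 from that of all genes. With median-ratio scaling the median of all genes was 0.01, and the members had 15 values above 0 and 23 below and a median of -0.04. With quantile normalization it was -0.05, and the members had 12 above and 26 below and a median of -0.11. Without the pair of UNx libraries that stood apart, the members' median was -0.10 beside -0.02 over all genes, 11 were above 0, and 1 rather than 14 had an unadjusted p under 0.05, beside 17.7% of all genes in that fit. With all libraries and without rescaling, 32 of the 38 confidence intervals (95%) lay within a 2-fold difference both ways. Of the 38, 37 lay below an increase of 1.5-fold in TPM + 1. These intervals take in the shift of all genes (median -0.29) and the pair of libraries that stood apart. They are not given for the other scalings or without that pair. With median-ratio scaling, limma gave 2 members higher and 1 lower at an unadjusted p under 0.05, beside 12.9% of all genes.

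Nolc1 had the smallest p in PT-S1 at 72 h. Its sham animals were at 16.0, 15.3, 21.5, 12.9 and 14.1 TPM and its UNx animals at 10.2, 10.3, 12.7, 9.42 and 10.3 TPM. Every UNx animal was below every sham animal, which held for 6 of the 38 members and for 5.33% of all genes tested. The reverse held for 0 members and 0.236% of all genes. The means were 15.9 ± 3.33 and 10.6 ± 1.24 TPM (SD, n = 5 each), and the change was -0.53 (SE 0.17, limma adjusted p = 0.237), or -0.24 relative to all genes. Without the libraries that stood apart it was -0.32.

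Ubtf was at 21.7, 24.4, 27.9, 20.5 and 21.6 TPM in sham and at 11.6, 10.9, 17.3, 18.1 and 18.8 TPM in UNx at 72 h in PT-S1. The groups did not overlap, and UNx animals 1 and 2, each with a library that stood apart, were the lowest. The change was -0.59 (SE 0.19, limma adjusted p = 0.237), and -0.19 without those libraries. Mybbp1a was at 18.7, 18.5, 24.3, 19.6 and 17.4 TPM in sham and at 10.3, 12.3, 16.7, 12.4 and 16.0 TPM in UNx. It showed no overlap either, and its change of -0.52 (SE 0.17) became -0.18 without those libraries. The other members without overlap were Ddx21, an RNA helicase (-0.36), and the processome subunits Utp6 (-0.48) and Nop14 (-0.35).

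Of the 5 genes for later maturation of the small subunit, 4 had an unadjusted p under 0.05 in PT-S1 at 72 h, and all 5 were below 0, in a table where 19.1% of all genes were lower at that limit and 17.0% of all genes lay above 0. Nob1, the nuclease that makes the last cut at the end of the small-subunit RNA, was at 25.7, 24.8, 28.6, 22.5 and 19.4 TPM in sham and at 13.1, 13.1, 18.7, 20.0 and 19.9 TPM in UNx. Tsr1, which blocks premature joining of subunits, was at 7.10, 8.39, 7.32, 6.26 and 6.87 TPM in sham and at 3.92, 3.95, 6.37, 4.67 and 6.25 TPM in UNx. Both had overlapping groups and their lowest values in UNx animals 1 and 2. The changes were -0.50 (SE 0.18) for Nob1 and -0.46 (SE 0.17) for Tsr1, and -0.16 and -0.09 without the libraries that stood apart.

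Rrs1, which helps to recruit the 5S particle to the large subunit, was at 22.0, 29.6, 26.9, 26.3 and 23.3 TPM in sham and at 11.3, 17.7, 19.5, 23.3 and 16.0 TPM in UNx at 72 h in PT-S1. UNx animal 4 overlapped the sham range, and the change was -0.55 (SE 0.19, limma adjusted p = 0.237), or -0.26 without the libraries that stood apart. Of the 8 large-subunit genes it alone had an unadjusted p under 0.05, although Bop1, with overlapping groups, had the lowest change of all members (-0.60, SE 0.33). In the processome, Heatr1 had -0.47 (SE 0.17), and 4 of the 9 genes had an unadjusted p under 0.05, all lower, beside the same 19.1% of all genes. None of the 3 box C/D proteins did, and Fbl, the methyltransferase itself, had -0.28 (SE 0.17), which had the opposite sign with median-ratio scaling (0.08) and quantile normalization (0.05). Nhp2 was at 84.0 ± 14.2 TPM in sham and 90.7 ± 11.4 TPM in UNx (SD, n = 5 each), with overlap.

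**Figure D2:**
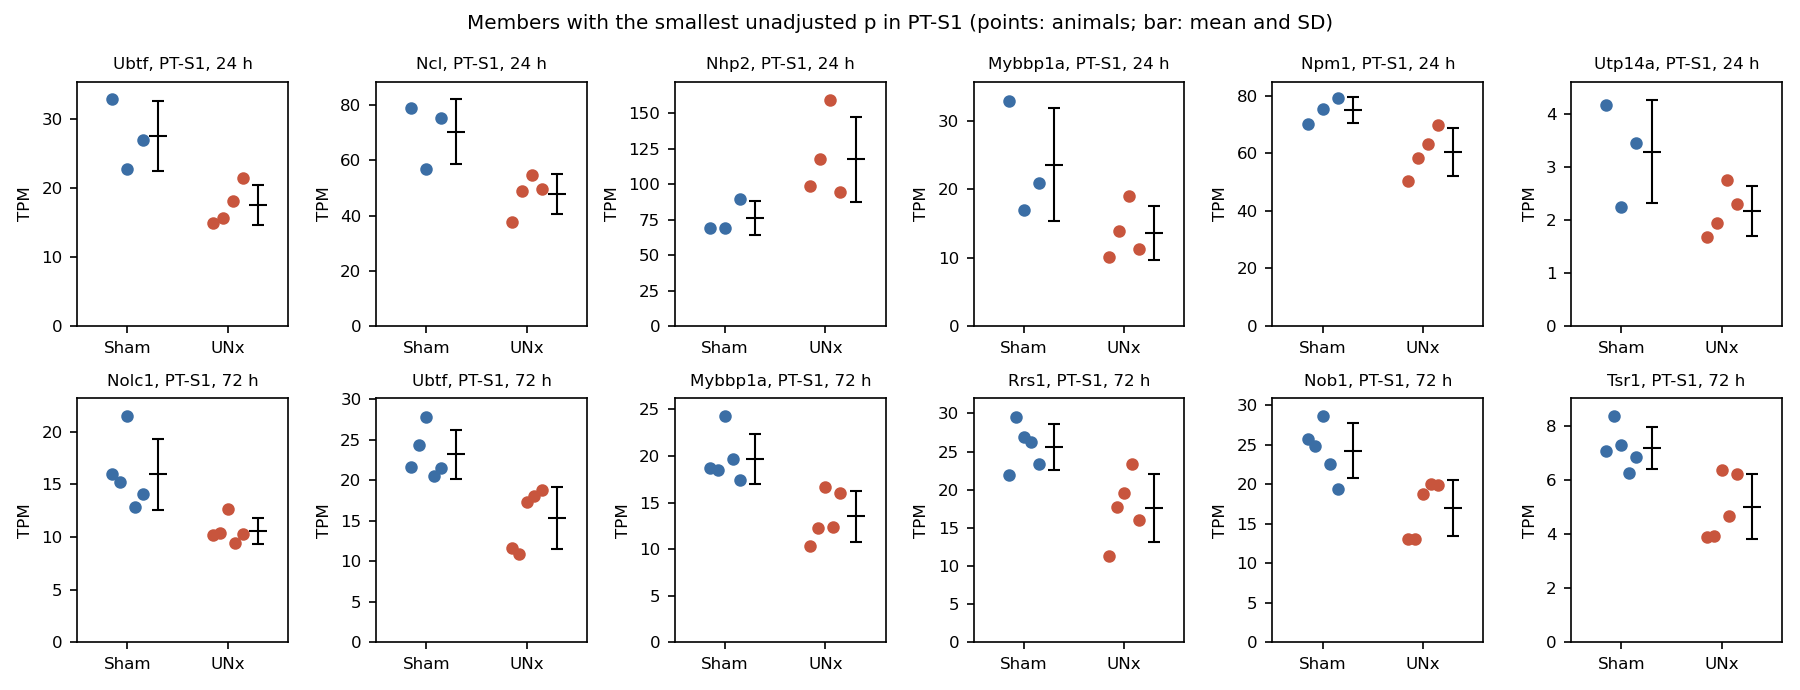
TPM of each animal (vertical axis) for the 6 members whose p was smallest in PT-S1 at 24 h (upper row) and at 72 h (lower row), with the mean and SD beside the points. Nhp2 at 24 h is above sham in all 4 UNx animals, and the 2 lowest UNx points of Ubtf at 72 h are the animals with a library that stood apart.

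The changes in PT-S1 went with annotated transcript length, a relation looked at after the data had been seen. Across the 38 members, Spearman's rho was taken between the change and the median length of their protein-coding transcripts (GENCODE vM21). It was -0.70 at 24 h and -0.57 at 72 h, where genes with a longer median length had lower values in UNx. Over all genes with a length it was -0.43 and -0.23. Without the libraries that stood apart, the members' rho was -0.66 at 24 h and -0.09 at 72 h. In CCD it was -0.24 at 24 h and 0.16 at 72 h, and -0.21 at 72 h without the sham library that stood apart. The length used is a median over all annotated protein-coding transcripts of a gene and need not be that of its main mRNA. For Utp20, described above as a large scaffold, it was only 784 bases. The genes of a rho share their libraries and are not replicates, and the part of length in the changes of single members was not tested.

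In CCD at 24 h, none of the 38 genes passed, while 0.987% of all 13775 genes tested (136 genes) did. The members' changes had a median of 0.04, beside -0.04 over all genes, and 23 of the 38 were above 0 (27 with median-ratio scaling and 28 with quantile normalization). Without UNx animal 1 the median was 0.10, with 33 above 0, and without UNx animal 2 it was 0.00, with 19 above 0. The median SE of the members' changes was 0.11 here and 0.19 in PT-S1 at 24 h. All 38 confidence intervals (95%) lay within a 2-fold difference both ways and 32 within 1.5-fold.

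Fbl, encoding fibrillarin, had the smallest p in CCD at 24 h. Its sham animals were at 7.46, 11.8, 9.94 and 13.5 TPM and its 3 UNx animals at 15.4, 15.3 and 15.3 TPM. Every UNx animal was above every sham animal, as for 5.55% of all genes tested, and Fbl was the only member of which this was so. No member was below sham in every UNx animal, which held for 9.51% of all genes. The means were 10.7 ± 2.58 TPM (SD, n = 4) and 15.3 ± 0.038 TPM (SD, n = 3), and the change was 0.51 (SE 0.17, limma adjusted p = 0.204). A similar pseudogene copy could take part of its reads. Nop56, which sits in the same particle, was at 58.1, 81.8, 77.7 and 70.2 TPM in sham and at 86.1, 81.1 and 84.0 TPM in UNx. Its groups overlapped by UNx animal 2 alone, with a change of 0.23 (SE 0.11). The other core protein, Nop58, had -0.21 (SE 0.21), with overlap.

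Rrp12 was at 3.52, 5.69, 3.67 and 5.78 TPM in sham and at 5.14, 6.87 and 7.30 TPM in UNx at 24 h in CCD, with overlap and a change of 0.41 (SE 0.20). Rrp9, which binds the U3 particle of the processome, was at 29.2, 25.2, 26.8 and 26.2 TPM in sham and at 27.5, 33.5 and 30.0 TPM in UNx (change 0.17, SE 0.10). Ncl was at 64.8, 82.2, 78.5 and 101 TPM in sham and at 82.3, 103 and 99.7 TPM in UNx (change 0.23, SE 0.14). In each of these the highest animal was a UNx animal, and the groups overlapped. Polr1a lay the other way, at 6.67, 6.95, 5.75 and 8.04 TPM in sham and at 3.61, 7.18 and 5.69 TPM in UNx (change -0.30, SE 0.20).

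Of the 8 large-subunit genes, 7 were above 0 in CCD at 24 h, with changes between -0.00 and 0.12. The smallest p there was that of Bop1, a partner of Pes1 and Wdr12 in the PeBoW complex (0.12, SE 0.08, limma adjusted p = 0.534), and in the box H/ACA group it was that of Dkc1 (-0.13, SE 0.09). The summed principal cell markers ranged from 16908 to 40798 TPM in sham and from 37608 to 54754 TPM in UNx in this table. Those of intercalated cells (5 genes) ranged from 2289 to 2731 TPM in sham and from 2650 to 3103 TPM in UNx. Those of the thick ascending limb (3 genes, among them Umod) ranged from 98.6 to 807 TPM in sham and from 78.0 to 199 TPM in UNx. Their part in the members' values was not tested. In bulk libraries, a change in the share of a cell type and a change of RNA per cell cannot be told apart.

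In CCD at 72 h, none of the 38 genes passed, none had an unadjusted p under 0.05 by limma, and 0.595% of all 13770 genes tested (82 genes) passed. The members' changes had a median of -0.05, beside 0.01 over all genes, and 16 of 38 were above 0 (14 with median-ratio scaling, 12 with quantile normalization). The groups of all 38 overlapped, while 3.23% of all genes had every UNx animal above sham and 1.54% had every one below. The members' changes ran from -0.24 (Gnl3) to 0.30 (Fbl), and all 38 confidence intervals (95%) lay within a 2-fold difference both ways. Without the sham library that stood apart, 5 of the 38 had an unadjusted p under 0.05, of which 4 were lower in UNx, beside 14.2% of all genes, a share near that of the members (13.2%). The median was then -0.14 beside -0.07 over all genes. Without sham animal 2 the median was 0.05 beside 0.02 over all genes, with 22 of 38 above 0, so the sign of the members' median rests on that animal.

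Wdr74, which takes part in large-subunit assembly, had the smallest p in CCD at 72 h. Its sham animals were at 73.7, 72.1, 61.3 and 65.9 TPM and its UNx animals at 63.7, 62.7, 57.2 and 51.7 TPM, so the groups overlapped. The means were 68.2 ± 5.73 and 58.8 ± 5.55 TPM (SD, n = 4 each), and the change was -0.21 (SE 0.11, limma adjusted p = 0.738). Rrp9 was at 33.6, 38.4, 36.7 and 30.8 TPM in sham and at 30.2, 34.0, 28.1 and 26.0 TPM in UNx (change -0.23, SE 0.12). Nob1 was at 29.5, 39.0, 32.8 and 28.1 TPM in sham and at 29.6, 26.1, 27.6 and 26.2 TPM in UNx (change -0.23, SE 0.12). Each of the 2 had its highest animals in sham and overlapped.

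Nolc1 was at 24.7, 31.8, 32.5 and 27.6 TPM in sham and at 23.4, 26.2, 26.5 and 24.0 TPM in UNx at 72 h in CCD (change -0.21, SE 0.12). Rrs1 was at 27.5, 33.3, 29.7 and 28.7 TPM in sham and at 26.5, 27.7, 24.6 and 26.6 TPM in UNx (change -0.17, SE 0.10). For both, sham animal 1, which holds the library that stood apart, was the lowest of its group and the one that overlapped UNx. Fbl was at 15.0, 16.5, 12.2 and 16.1 TPM in sham and at 16.5, 15.1, 21.8 and 21.8 TPM in UNx. UNx animals 3 and 4 lay above the sham range, UNx animal 1 was level with its upper end and UNx animal 2 was inside it (change 0.30, SE 0.16, limma adjusted p = 0.764). Ncl had 0.21 (SE 0.13) and Ubtf -0.06 (SE 0.10).

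**Figure D3:**
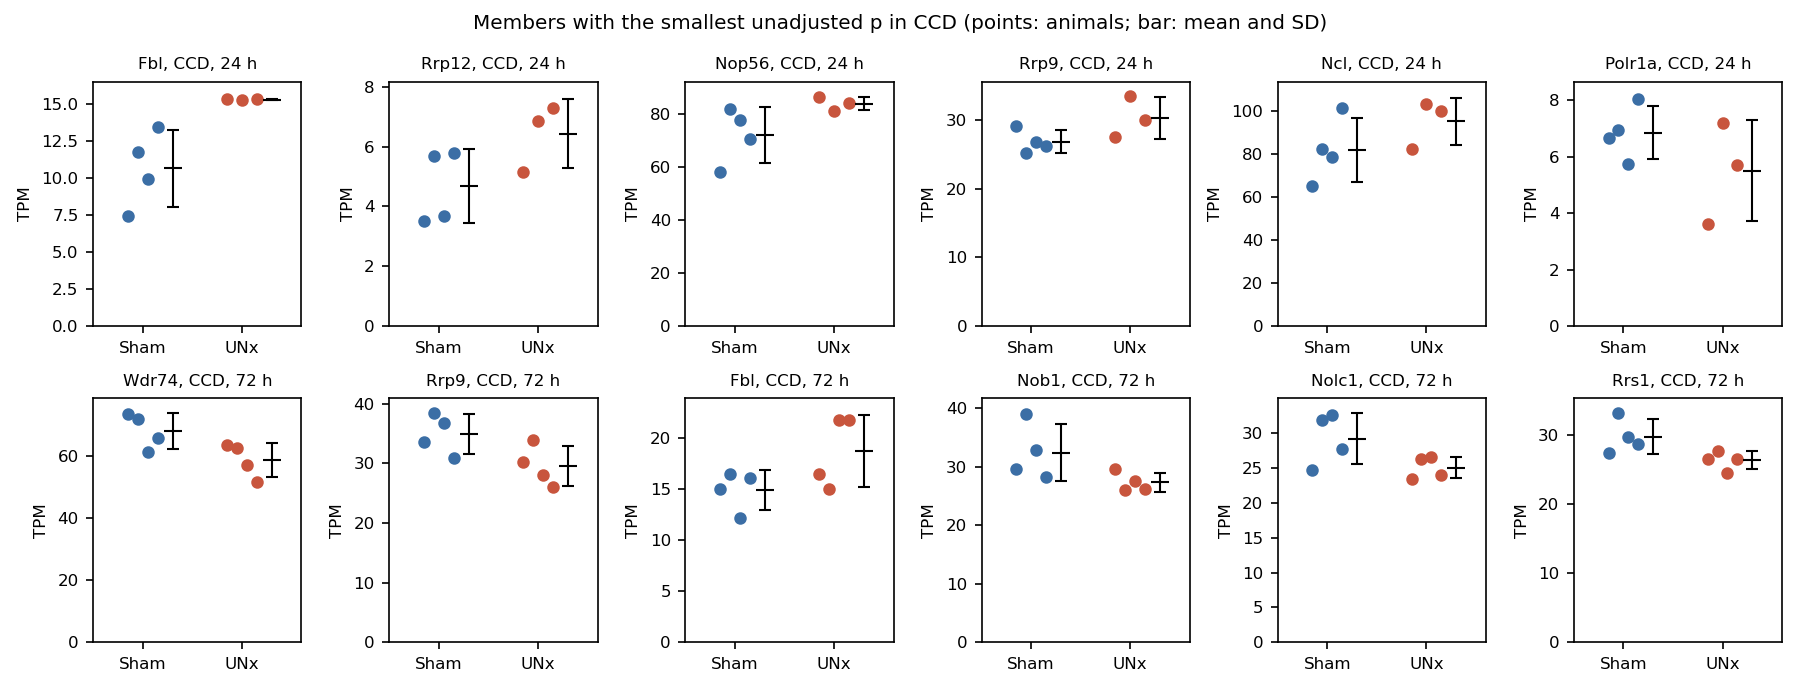
TPM of each animal (vertical axis) for the 6 members whose p was smallest in CCD at 24 h (upper row) and at 72 h (lower row), with the mean and SD beside the points. Fbl at 24 h is the only panel in which the groups do not overlap, with 3 UNx animals near 15.3 TPM.

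The mean over the 38 genes in each animal is given beside the mean over all genes tested. In PT-S1 at 72 h, the mean log2(TPM + 1) of the members ranged from 3.94 to 4.19 in sham animals. It was 3.38 and 3.48 in UNx animals 1 and 2, beside 3.38 and 3.46 for all genes in the same animals. In UNx animals 3 to 5 it ranged from 3.89 to 3.92, beside 3.96 to 3.99 for all genes. These 3 animals were therefore below the sham range for the members and within it for all genes. In CCD at 72 h, the members' mean was highest in sham animal 2, at 4.94, and ranged from 4.63 to 4.69 in the UNx animals.

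**Figure D4:**
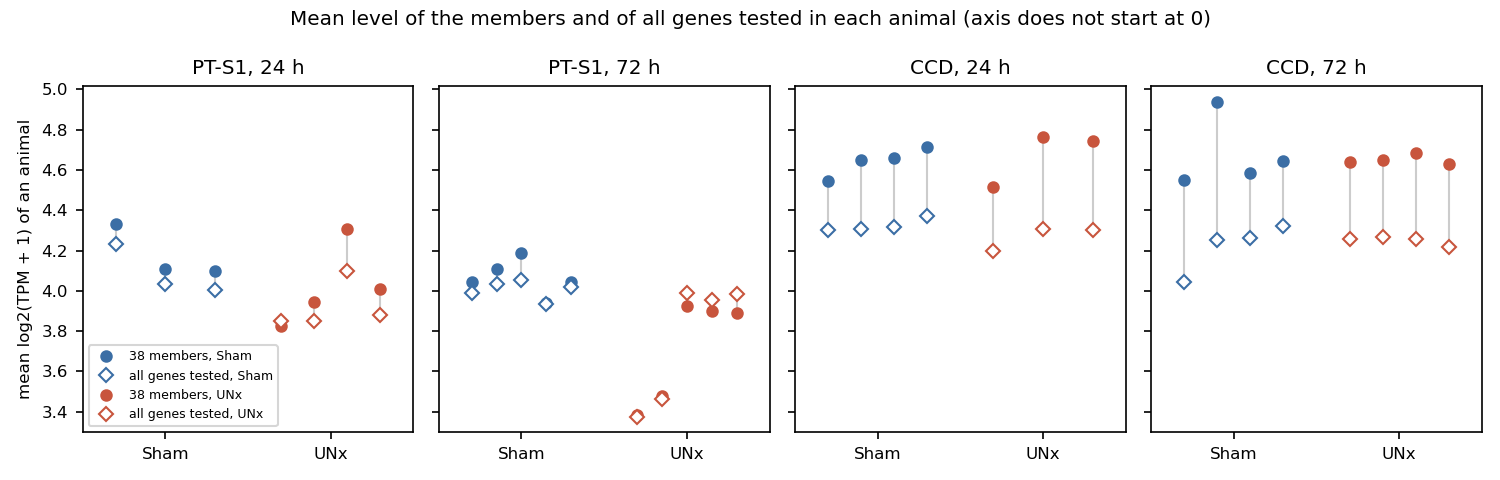
Mean log2(TPM + 1) of the 38 members (filled) and of all genes tested (open) in each animal, on a vertical axis that does not start at 0. Both means are lowest in UNx animals 1 and 2 of PT-S1 at 72 h (members at 3.38 and 3.48), and in CCD the members lie above all genes in every animal.

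Differences of the UNx effect between the times, and between the segments, were fitted as contrasts by limma, and none of the 38 passed in any of the 4 contrasts. Of all genes, 0% passed in the contrast of times in PT-S1, in that in CCD and in the contrast of segments at 72 h. In the contrast of segments at 24 h, 0.137% passed. The difference between the times in PT-S1 had 0 members with an unadjusted p under 0.05, beside 3.33% of all genes (1.37% higher at 72 h and 1.96% lower). That in CCD had 1, lower at 72 h, beside 4.96% of all genes (3.52% higher and 1.45% lower). The smallest p in PT-S1 belonged to Bysl, a factor in small-subunit maturation, with an effect at 72 h that lay -0.61 from that at 24 h (SE 0.32, limma adjusted p = 0.998), followed by Nhp2 (-0.49, SE 0.26). In CCD it belonged to Rrp9 (-0.40, SE 0.15, limma adjusted p = 0.968) and Rrs1 (-0.26, SE 0.13). The 2 times do not share control animals within a segment.

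The effect in CCD minus that in PT-S1 had 5 members with an unadjusted p under 0.05 at 24 h, beside 15.4% of all genes, and 6 at 72 h, beside 9.33%. At 24 h, 4 of the 5 were higher in CCD (12% of all genes) and 1, Nhp2, was lower (3.44%). At 72 h all 6 were higher (8.73% of all genes), and 0.607% of all genes were lower. At 24 h, limma passed 0.137% of all genes and none of the members. The smallest p at 24 h was that of Ncl (0.77, SE 0.24, limma adjusted p = 0.189), with an effect of 0.23 in CCD and -0.55 in PT-S1, followed by Ubtf (0.56, SE 0.23). At 72 h it was that of Mybbp1a (0.72, SE 0.25, limma adjusted p = 0.495), with 0.19 in CCD and -0.52 in PT-S1, followed by Utp6 (0.63, SE 0.24). Of the 38 differences, 30 (78.9%) were above 0 at 24 h and 35 (92.1%) at 72 h, beside 63.7% and 83.1% of all genes. With median-ratio scaling these counts were 23 and 20, with quantile normalization 22 and 24, and without the libraries that stood apart 32 and 16.

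All 38 genes were expressed in both segments. Over all animals, the highest levels were those of Nhp2 (86.4 TPM), Npm1 (84.8 TPM) and Ncl (71.8 TPM), and the lowest were those of Utp14a (4.88 TPM), Utp20 (4.53 TPM) and Rrp12 (4.0 TPM). Neighbours in this order had overlapping animals at both ends. In sham animals, Nhp2 was at 76.0 ± 11.9 TPM (SD, n = 3) in PT-S1 and 75.6 ± 8.24 TPM (SD, n = 4) in CCD at 24 h. Npm1 was at 75.0 ± 4.47 TPM in those PT-S1 animals and at 99.6 ± 6.82 TPM in those CCD animals. The order of the 38 levels was similar in the sham groups of the 4 tables, with Spearman's rho between 0.874 and 0.967. The tables were treated as normalized separately, so levels between them are a description.

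The sham ratio of CCD to PT-S1 had a median of 1.38 over the members at 24 h and 1.70 at 72 h, beside 1.73 and 1.74 over all genes. In 23 of the 38 genes every CCD animal was above every PT-S1 animal at 24 h, as in 61.6% of all genes, and in 22 at 72 h, as in 55.3%. The largest ratios at 24 h were those of Nop58 (2.78), Nop56 (2.32) and Ddx21 (2.29), and Ubtf had 1.94. The reverse order was found at 24 h in Nop16 (0.719) and Rcl1 (0.808), the only 2 of the 38, beside 13% of all genes, and in 0 at 72 h, beside 10.3%.

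The rest of the pathway gave the same count of 0. Of 100 other ribosome biogenesis genes, 97 to 99 were tested in a table and 0 passed in any of the 4, with median changes of -0.23 and -0.38 in PT-S1 at 24 h and 72 h and of -0.03 and -0.05 in CCD. Over all genes the medians were -0.19 and -0.29 in PT-S1 and -0.04 and 0.01 in CCD. The shares of all genes that passed were 0% in PT-S1 at both times, 0.987% in CCD at 24 h and 0.595% in CCD at 72 h. At an unadjusted p under 0.05, limma gave 21 of these other genes in PT-S1 at 24 h (20 lower) and 44 at 72 h (all lower). The shares of all genes at that limit were 17.8% and 20.5%, and those of genes lower in UNx were 15.2% and 19.1%. In CCD it gave 2 and 7 of them, beside 15.5% and 7.49% of all genes. For the members, the count in PT-S1 at 72 h went from 14 to 1 without the pair of UNx libraries that stood apart. The count of the other biogenesis genes without that pair is not given here. The smallest p in PT-S1 belonged to Ddx24 (-0.78, SE 0.18) and Nop53 (-0.62, SE 0.18) at 24 h and to Ebna1bp2 (-0.55, SE 0.14) and Rsl24d1 (-0.62, SE 0.17) at 72 h. In CCD it belonged to Mdn1 (-0.50, SE 0.17) and Ddx49 (0.21, SE 0.09) at 24 h and to Polr1f (-0.77, SE 0.20) and Gnl3l (0.36, SE 0.14) at 72 h.

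The mRNAs of ribosomal proteins, which are parts of the ribosome, were measured too, while ribosomes themselves were not. Of the cytosolic ribosomal protein genes, 1 of 85 passed in CCD at 24 h, beside 0.987% of all genes tested, so this count is near the background. It was Rps25, which fell from 418 ± 18.7 TPM (SD, n = 4) to 254 ± 34.7 TPM (SD, n = 3), a change of -0.72 (SE 0.09, limma adjusted p = 0.021). It did not pass without sham animal 1 or 4 or without UNx animal 1 or 2, each left out alone. None passed in the other tables. Many ribosomal protein genes have processed copies, so their levels are uncertain. In CCD at 72 h their median change was 0.25, beside 0.01 over all genes. At an unadjusted p under 0.05 by limma, 39 of 86 were higher in UNx (4.66% of all genes) and 0 were lower (2.82%). In 8 of the 86 every UNx animal was above sham (3.23% of all genes), and in 1 every UNx animal was below (1.54%). Rps29 (0.88, SE 0.19, limma adjusted p = 0.110) and Rpl12 (0.55, SE 0.13) had the smallest p. In PT-S1 the median changes of the ribosomal protein genes were 0.05 at 24 h and 0.07 at 72 h, beside -0.19 and -0.29 over all genes. Of 85 tested at each time, 55 and 49 were above 0, beside 29.1% and 17.0% of all genes. At an unadjusted p under 0.05, limma gave 0 at 24 h, beside 17.8% of all genes. It gave 8 at 72 h, all lower, beside 19.1% of all genes. The smallest p in PT-S1 belonged to Rps27l (0.31, SE 0.17) at 24 h and to Rpl3 (-0.46, SE 0.16) and Rpl4 (-0.44, SE 0.16) at 72 h. Over all genes in PT-S1, Spearman's rho of change and transcript length was -0.43 at 24 h and -0.23 at 72 h. At 72 h it was 0.055 without the libraries that stood apart. The part of length in the ribosomal protein changes was not tested, and their values without those libraries are not given here.

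Genes of DNA replication did pass in CCD. At 24 h, Tk1 rose from 3.66 ± 1.45 to 12.8 ± 4.14 TPM and Rrm2 from 30.0 ± 4.06 to 54.2 ± 10.7 TPM. They were the only 2 of 37 that passed, beside 0.987% of all genes, with limma adjusted p of 0.0405 and 0.0426. Neither passed when any single animal was left out. At 72 h, 10 of 37 passed, all higher in UNx, beside 0.595% of all genes. They were Mcm3, Uhrf1, Mcm5, Cdc6, Mcm6, Ccne1, Lig1, Rrm1, Rrm2 and Mcm7. Over the list, 36 of 37 changes were above 0, beside 52.2% of all genes, with a median of 0.76. Mcm3, a subunit of the replicative helicase, rose from 6.45 ± 1.65 to 23.1 ± 1.88 TPM (SD, n = 4 each, limma adjusted p = 0.0063). Leaving out a single animal gave between 1 and 9 genes, with 1 when UNx animal 2 or UNx animal 3 was left out. In the same animals, the counts of ribosome biogenesis members were 0 of 38 at both times. In PT-S1 no replication gene passed, and the smallest p belonged to Tk1 (-0.45, SE 0.17) and Rfc1 (-0.47, SE 0.23) at 24 h and to Rrm2 (1.57, SE 0.57) and Lig1 (0.45, SE 0.17) at 72 h.

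**Figure D5:**
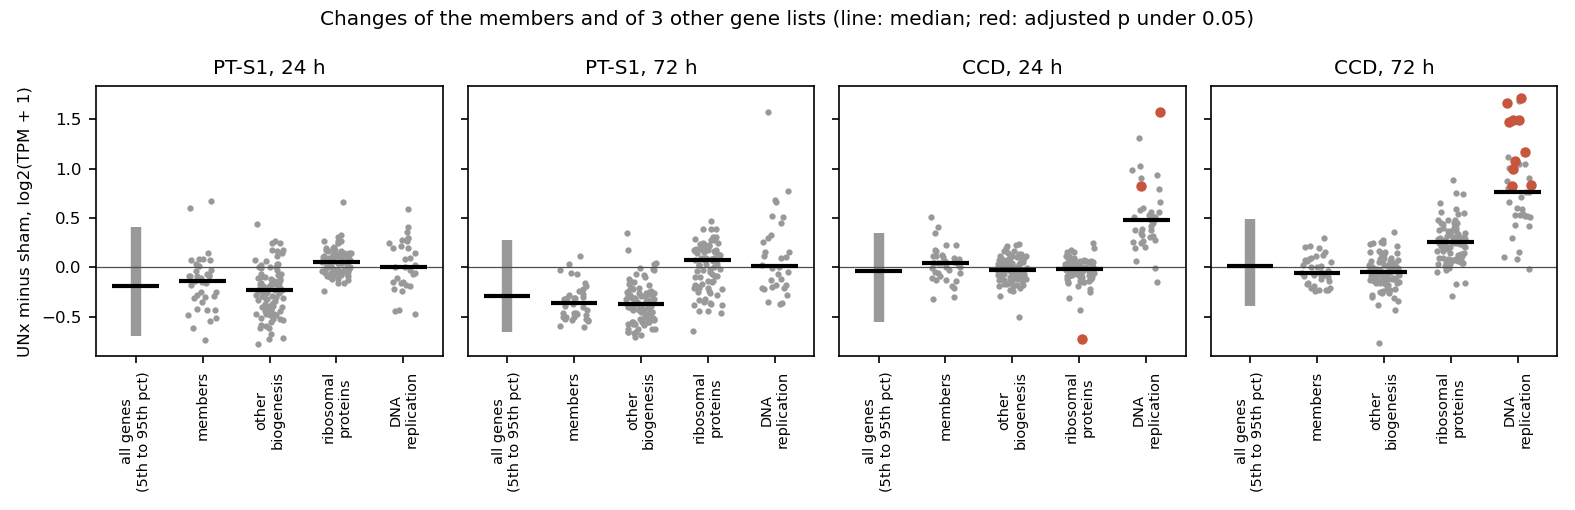
Change of each gene (UNx minus sham, log2(TPM + 1), vertical axis) for the 38 members and 3 comparison lists, with the list's median as a black line and genes with an adjusted p under 0.05 in red; for all genes tested, the grey bar spans the 5th to the 95th percentile. Red points appear for DNA replication in CCD (2 genes at 24 h and 10 at 72 h) and for 1 ribosomal protein gene, and none for the members.

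The annotation limits how far single genes can be read. The cDNA kit does not mark strand, and in GENCODE vM21 the exons of 16 of the 38 members overlap a gene on the opposite strand. Among the members described above these include Nhp2 (with Rmnd5b), Mybbp1a (Spns2), Rrp9 (Parp3), Tsr1 (Srr) and Nop56 (Idh3b), whose reads cannot be told apart there. In 4 members the exons overlap a gene on the same strand as well, among them small nucleolar RNA genes hosted by Ncl, Nop56, Nop58 and Gnl3.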

How the data were processed

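The authors deposited 1 table of TPM values per segment and time. STAR, RSEM 1.3.3 and the build GRCm39 are named in the submitters' processing notes, and cDNA from polyA RNA was made with a SMART-Seq V4 kit, per the labels' protocols. All 69 columns were used: 47 matched a single sample, and 22 matched a group and an animal but not a library number. Every library totals 1e+06 TPM, so depth is unknown. Libraries of an animal were averaged on log2(TPM + 1), a pseudocount of 1. Within each table, genes averaging 1 TPM or more were tested by limma 3.58.1 in R 4.3.3, with a mean-variance trend, two-sided, with Benjamini-Hochberg adjustment and a threshold of 0.05. Differences of effects were contrasts of 4 group means. The fits were tested on simulated data. Per-animal values are given for the 6 members with the smallest p in each table. Also named are the smallest p in each role group, the 3 highest and 3 lowest levels, and the 2 smallest p in each difference. From the other lists the genes past the threshold, or else the 2 smallest p, are named, except 1 gene that is not reported here. Other genes named beside these were picked after their values were seen. The members and lists were chosen with earlier results of these data known. Gene coordinates of the authors' build were not used here. The labels do not say how the animals were distributed over dissection or sequencing days. The alternatives tried are in the closing section.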

Additional observations from a re-analysis of the deposited data

How the results depend on the processing

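The count of members past the threshold was 0 in all 179 combinations of comparison and setting, alternatives and left-out animals included. Of 582 values of 33 named changes under an alternative, 576 kept their sign and 6 did not: Nop58 (0.073 and 0.097) and Pes1 (0.078 and 0.049) in PT-S1 at 24 h and Fbl (0.079 and 0.046) in PT-S1 at 72 h, with median-ratio scaling and quantile normalization. Without a filter on TPM other than a value above 0 in 3 animals, the members' median minus that of all genes was -0.082 in PT-S1 at 24 h and -0.29 at 72 h, in place of 0.05 and -0.08. The count of all genes past the threshold, at 0 in both PT-S1 tables and at 136 and 82 in CCD at 24 h and 72 h, moved more. In PT-S1 at 24 h it was 2 without the filter, 1 with median-ratio scaling, 1 with quantile normalization, 85 with every library as a replicate, 100 with a random effect of animal and, at 1, without the libraries that stood apart. In PT-S1 at 72 h it was 18 with every library as a replicate, 10 with the random effect and 1 without those libraries. In CCD at 24 h it was 1 without the filter, 1027 with every library as a replicate and 485 with the random effect. In CCD at 72 h it was 39 at a mean TPM of at least 5, 7 without the filter, 150 with every library as a replicate and 129 without the library that stood apart. Libraries of an animal are not independent, so every library as a replicate gives p-values that are too small. The cause of the other moves was not tested. With a left-out animal the count ranged from 0 to 8 in PT-S1 at 24 h, from 7 to 78 in CCD at 24 h and from 8 to 73 in CCD at 72 h. With a left-out animal, members at the unadjusted limit of 0.05 numbered between 2 (sham animal 1 left out) and 8 (UNx animal 3 left out) in PT-S1 at 24 h, beside 7.02% and 21.9% of all genes. They numbered between 9 (sham animal 1 left out, 12.0% of all genes) and 17 (UNx animal 4 or 5 left out, 27.1% and 25.1%) in PT-S1 at 72 h, between 1 and 4 (sham animal 4 or UNx animal 1 left out, 14.8% and 10.3%) in CCD at 24 h and between 0 and 2 (UNx animal 2 left out, 7.39%) in CCD at 72 h. Same-numbered sham and UNx animals share only a number: their deviations correlated between -0.366 and 0.328. With a replicate block by that number, 0 members and 81, 0, 0 and 3 genes of all passed in PT-S1 at 24 h and 72 h and CCD at 24 h and 72 h, and 0 and 2 replication genes in CCD. Depth, which TPM does not keep, limits what can be said of the lowest members. The median SD of the members between animals was 0.23 and 0.27 on the log2 scale in PT-S1 and 0.16 and 0.21 in CCD at 24 h and 72 h.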
